A study of Mus musculus with 4 samples.

Results

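Guanylate-binding proteins (Gbp) and immunity-related GTPases (Irg) were followed in mouse bone-marrow-derived macrophages as a set of 10 named genes, chosen by symbol from the 21878 genes of the count table: Gbp2, Gbp3, Gbp4, Gbp5, Gbp7, Gbp9, Irgm1, Irgm2, Igtp and Iigp1. All 10 were listed and all 10 passed the filter on low counts that left 12494 genes for testing. The macrophages came from C57BL/6 animals aged 8 weeks per the labels, were grown from marrow with M-CSF, and all of them were cocultured with MC38, a mouse colon carcinoma line held apart from them by a porous insert. The labels give 48 h of coculture, whereas the legend of the study gives a shorter time. RNA was sequenced from 2 libraries of wild-type (WT) cells and 2 of anti-Act1 cells, from mice described as having Act1 knocked down in macrophages. Act1, the adaptor of the IL-17 receptor, is encoded by Traf3ip2. No library of macrophages grown without MC38 was analysed here, so both groups share the coculture.

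Gbp and Irg proteins are large GTPases that cells make in response to interferons and that assemble on the membranes of vacuoles holding bacteria or parasites. Interferon γ acts through its receptor and the kinases JAK1 and JAK2 on GAS elements and induces IRF1, whereas type I interferons act through a complex that holds STAT2 and IRF9 on ISRE elements, which IRF factors also bind. Gbp proteins open such vacuoles and bring bacterial lipopolysaccharide to caspase-11. Among the Irg proteins, Irgm1, Irgm2 and Igtp (Irgm3) are regulators that stay on the cell's own membranes, and Iigp1 (Irga6) is an effector loaded onto foreign ones.

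Such interferon elements usually lie shortly before the transcript start, and this stretch is shown for 5 members. Gbp2, Gbp3 and Gbp5 were the Gbp members with the largest rises below, and Igtp and Irgm2 are neighbours with similar upstream sequence of which only Igtp was called. Each line gives the 180 bases before a RefSeq start on the gene's own strand in GRCm38.p6. The lines cover chr3:142620483-142620662 for Gbp2, chr3:142559864-142560043 for the first of 2 starts of Gbp3, chr3:142496754-142496933 for Gbp5, chr11:58199376-58199555 for Igtp and chr11:58214797-58214976 for Irgm2, all on the plus strand. Capitals mark matches to an ISRE core (GAAA, then 2 bases of any kind, then GAAA) and to a GAS element (TTCNNNGAA), each sought on both strands. A GAS match reads the same on either strand.
Gbp2: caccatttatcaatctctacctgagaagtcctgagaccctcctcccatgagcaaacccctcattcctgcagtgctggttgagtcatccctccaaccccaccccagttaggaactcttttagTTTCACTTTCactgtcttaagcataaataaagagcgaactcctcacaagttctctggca
Gbp3: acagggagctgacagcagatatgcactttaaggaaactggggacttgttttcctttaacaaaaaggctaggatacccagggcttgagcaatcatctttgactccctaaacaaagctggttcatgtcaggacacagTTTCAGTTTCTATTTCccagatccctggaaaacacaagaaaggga
Gbp5: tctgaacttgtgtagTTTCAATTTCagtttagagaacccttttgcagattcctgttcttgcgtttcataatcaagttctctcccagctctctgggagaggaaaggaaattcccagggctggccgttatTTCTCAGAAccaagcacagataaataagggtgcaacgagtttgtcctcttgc
Igtp: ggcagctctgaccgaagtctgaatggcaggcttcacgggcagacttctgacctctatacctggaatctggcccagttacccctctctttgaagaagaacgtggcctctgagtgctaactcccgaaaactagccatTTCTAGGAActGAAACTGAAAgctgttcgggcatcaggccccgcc
Irgm2: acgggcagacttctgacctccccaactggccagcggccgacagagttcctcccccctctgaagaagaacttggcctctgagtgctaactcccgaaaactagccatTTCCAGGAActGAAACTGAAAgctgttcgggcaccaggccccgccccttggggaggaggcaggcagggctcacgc

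Of the 10 members, 7 had an entry among the RefSeq promoters (the 5 above, Gbp7 and Irgm1), and Gbp4, Gbp9 and Iigp1 had none. All 7 held an ISRE core within 250 bases before a start, against 2.98% of the 32851 windows in the table. A GAS match was present in 4 of the 7, namely Gbp5, Gbp7, Igtp and Irgm2, against 7.02% of windows. Of 9 other family genes with an entry, 4 held an ISRE core and 3 a GAS match. The core began 59 bases before the start in Gbp2, at -45 and -39 as overlapping matches in Gbp3, and at -165 in Gbp5, whose GAS matches began at -245 (outside the printed stretch) and -52. In Igtp the GAS match began at -45 and the ISRE core at -34, and in Irgm2 at -75 and -64, with the same spacing in both. The windows of Igtp and Irgm2 shared a run of 38 identical bases and were 74.0% identical over 150 aligned bases. These are matches of letters in the reference. Binding was not measured. A family gene counted when any of its starts held a match, whereas the percentages are over windows. As these families were chosen as interferon-induced, more matches than over all windows are no independent support. The bases just after the start were found in a GENCODE transcript of the gene for 5 of 8 starts. They were not found for Gbp7, Irgm2 and the second start of Gbp3. Distances for Gbp7 and Irgm2 therefore rest on the RefSeq start alone.

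**Figure D1:**
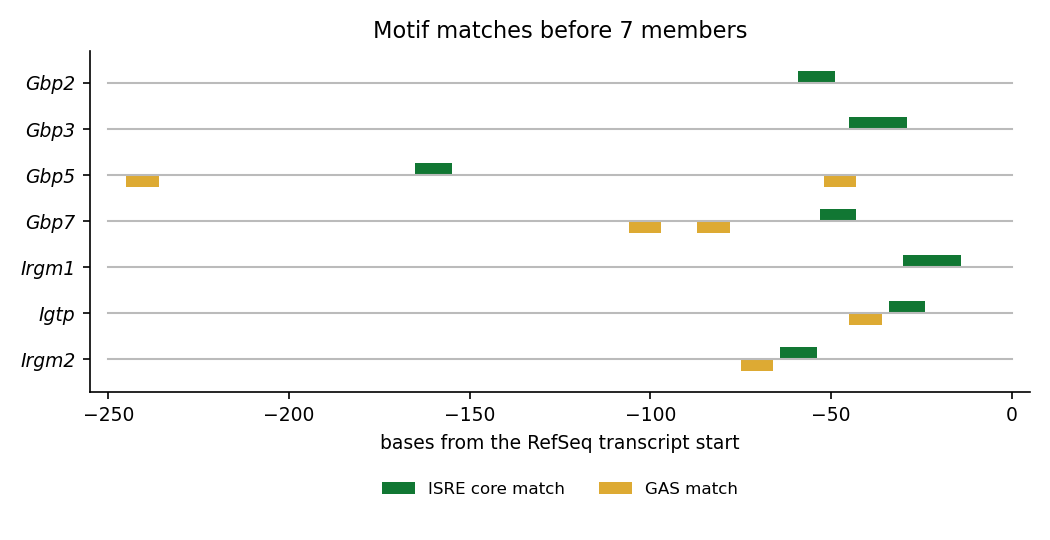
Matches to the ISRE core (green, above each line) and to the GAS element (yellow, below) over 250 bases before the RefSeq start of 7 members, by distance from the start in bases. All 7 lines carry an ISRE core match and 4 carry a GAS match, and for 6 of the 7 the core begins 64 bases or fewer before the start.

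The libraries held 55435063 to 75062945 counts, and member genes had between 746 and 10765 counts in each, so that no member was near the detection floor of 3 counts, at most 0.0549 CPM, which covers counting error only. CPM corrects counts for sequencing depth, here with TMM factors. Traf3ip2 showed no fall under the anti-Act1 label, with 6.98 and 7.54 CPM in WT and 9.63 and 7.84 CPM in anti-Act1 libraries (adjusted p = 0.117, edgeR), so it does not check the labels and the groups are called by them throughout. The study reported markedly lower Act1 in marrow-derived macrophages of anti-Act1 mice, by a separate assay that was not analysed here. The sum of 4 Y-linked genes was 228 and 246 CPM in WT and 0.0162 and 0 CPM in anti-Act1 libraries. Only male cells carry these genes, so the values are those of male WT and female anti-Act1 donors, read from transcripts alone. The groups therefore differed in donor sex as well as in the labelled genotype. The parts of the 2 differences in any result cannot be told apart. The 10 macrophage markers summed to 25169 to 26644 CPM in every library, of which Lyz2 alone gave 15811.2 to 17736.5 CPM. Cd14 was called higher and Itgam, Mertk, Mrc1 and C1qa lower in anti-Act1 libraries. The median log2 fold change of the 10 markers was -0.10. Markers of epithelial tumour cells summed to 0.330 to 0.898 CPM, with 5 of 10 at 0 in all libraries. Summed T and NK cell markers were 26.2 to 31.7 CPM, nearly all of it Cd4, which macrophages can transcribe and which was called higher (log2 fold change 0.21, adjusted p = 0.0358, edgeR). Dendritic cell, neutrophil, B cell and fibroblast lists each summed to between 1.33 and 7.37 CPM. Of 6 neutrophil markers tested, S100a8 was higher (log2 fold change 0.66) and S100a9 (-1.42), Ngp (-2.21) and Retnlg (22 and 19 counts in WT, 2 and 0 in anti-Act1) were lower. The part of other cells in the results was not tested.

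As a group the members took a larger share of the RNA in the libraries labelled anti-Act1. Their reads made up 0.0601% and 0.0616% of all counts in WT and 0.0719% and 0.0711% in anti-Act1 libraries. By edgeR's quasi-likelihood test, with adjustment over all 12494 genes, 7 of the 10 were higher, 1 was lower and 2 were not called. Over all genes tested, 10.9% were called higher and 9.76% lower, 20.7% in either direction. The median log2 fold change of the members was 0.21 against -0.00 over all genes, whose quartiles were -0.12 and 0.13. For 7 members both anti-Act1 libraries lay above both WT libraries, a pattern found in 28.4% of all genes tested. In such bulk RNA, more cells making a transcript and more transcript per cell cannot be told apart. The study describes the 2 libraries of each condition as biological replicates. The labels number them without naming the mouse behind each, so the p-values measure the spread between these libraries.

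The rise was uneven. Gbp2, Gbp3, Gbp5 and Iigp1 rose by 0.58 to 0.79 on the log2 scale, Gbp7, Igtp and Irgm1 rose by 0.17 to 0.22, Irgm2 and Gbp4 were not called, and Gbp9 was slightly lower.

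Gbp2 is a lipid-anchored Gbp that coats vacuoles of Toxoplasma and of cytosol-invading bacteria. It had 4110 and 4752 counts in WT and 6751 and 5925 in anti-Act1 libraries, although the anti-Act1 libraries were the shallower ones. Scaled for depth this was 63.6 and 62.6 CPM against 109 and 109 CPM, with 63.1 ± 0.708 CPM in WT and 109 ± 0.574 CPM in anti-Act1 (mean ± SD, n = 2 each). The groups were far apart relative to their spread. The fold was 1.73, a log2 fold change of 0.79 (SE 0.06, 95% interval 0.68 to 0.90, adjusted p = 5.26e-16, edgeR). It was called under all 13 alternative analyses, with a log2 fold change of 0.74 to 0.80. Such a rise was not rare in the table, where 424 tested genes had a log2 fold change at least that of Gbp2.

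Gbp3 is encoded near Gbp2 in the chromosome 3 cluster. It gave 52.9 and 54.5 CPM in WT and 83.6 and 81.0 CPM in anti-Act1 libraries, again with no overlap. Its log2 fold change was 0.61 (SE 0.06, adjusted p = 5.72e-12, edgeR), a fold of 1.53. Gbp5, a lipid-anchored Gbp linked to inflammasome activation, was the least abundant of these by read number, with 1220 and 1454 counts in WT and 1779 and 1531 in anti-Act1 libraries. After scaling it averaged 19.0 ± 0.195 CPM in WT and 28.4 ± 0.544 CPM in anti-Act1 (n = 2 each), and the groups did not overlap. The log2 fold change was 0.58 (SE 0.07, adjusted p = 2.66e-08, edgeR). Both genes were called under all 13 alternatives.

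Gbp7, linked to assembly of the phagocyte oxidase, rose less and with a wider spread in WT. Its values were 56.4 and 64.2 CPM in WT and 70.3 and 70.0 CPM in anti-Act1 libraries. The anti-Act1 values were close together and the WT values far apart, with WT replicate 1 the low library. The log2 fold change was 0.22 (SE 0.06, adjusted p = 0.00669, edgeR). It was 0.13 and not called without WT replicate 1 (adjusted p = 0.181, edgeR) and 0.22 and not called without anti-Act1 replicate 1 (adjusted p = 0.0562, edgeR), and it was called under 8 of 13 alternatives. Of the 50-base words of Gbp7 transcripts, 12.7% also occurred in other genes, chiefly in the pseudogene Gm43802 that overlaps it, so the division of its reads is uncertain.

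Gbp4 and Gbp9 lie side by side on chromosome 5, and neither was called higher. Gbp9 had the most reads of the Gbp members in WT, with 97.0 and 102 CPM in WT and 88.0 and 90.2 CPM in anti-Act1 libraries. Both anti-Act1 values lay under both WT values, and the log2 fold change was -0.16 (SE 0.05, 95% interval -0.27 to -0.05, adjusted p = 0.0316, edgeR). This call was lost without WT replicate 2 (adjusted p = 0.192), without anti-Act1 replicate 1 (adjusted p = 0.274) and without anti-Act1 replicate 2 (adjusted p = 0.132, all edgeR), while the value stayed between -0.19 and -0.12. Gbp4 gave 15.8 and 16.4 CPM in WT and 17.5 and 14.7 CPM in anti-Act1 libraries, so the anti-Act1 libraries lay on either side of WT. Its log2 fold change was 0.00 (95% interval -0.17 to 0.18, adjusted p = 0.983, edgeR), and its sign turned under 7 of 13 alternatives. The interval leaves out a rise of the size seen for Gbp2, Gbp3 or Gbp5.

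**Figure D2:**
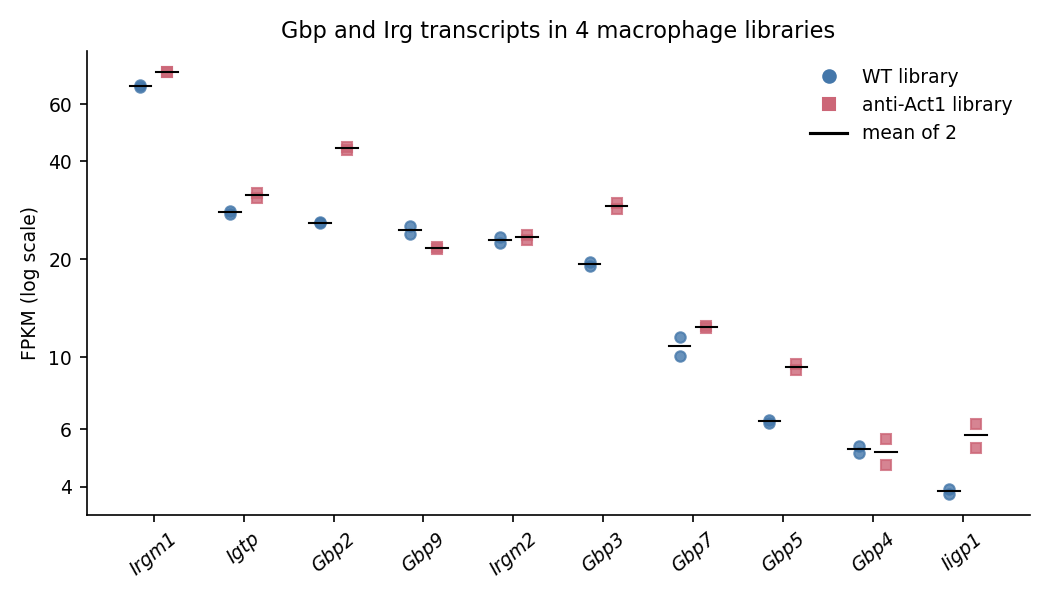
FPKM of the 10 members (log axis) in each library, ordered by the WT mean. Circles are the 2 WT and squares the 2 anti-Act1 libraries, and bars are their means. Gbp2, Gbp3, Gbp5 and Iigp1 show the widest gaps between groups, Gbp9 lies lower in anti-Act1, and the groups overlap for Irgm2 and Gbp4.

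Among the regulators, Irgm1 was the most abundant member per length. It gave 145 and 142 CPM in WT and 161 and 162 CPM in anti-Act1 libraries, without overlap. The log2 fold change was 0.17 (SE 0.05, adjusted p = 0.0153, edgeR), and it was called under 7 of 13 alternatives. The call was lost without WT replicate 2 (0.15, adjusted p = 0.0788), without anti-Act1 replicate 1 (0.18, adjusted p = 0.0996) and without anti-Act1 replicate 2 (0.16, adjusted p = 0.143, all edgeR). Igtp, which resides on the endoplasmic reticulum and lipid droplets, gave 56.5 and 55.3 CPM in WT and 62.8 and 65.9 CPM in anti-Act1 libraries. Its log2 fold change was 0.20 (SE 0.06, adjusted p = 0.00892, edgeR), called under 11 of 13 alternatives and lost without anti-Act1 replicate 2 (0.17, adjusted p = 0.176, edgeR). Irgm2, a Golgi regulator that restrains caspase-11 responses, gave 78.6 and 81.3 CPM in WT and 80.8 and 84.9 CPM in anti-Act1 libraries, and the groups overlapped. It was not called (log2 fold change 0.05, 95% interval -0.06 to 0.16, adjusted p = 0.594, edgeR) under any of the 13 alternatives. The intervals of Igtp (0.09 to 0.32) and Irgm2 overlapped, and the difference between their changes was not tested. Igtp and Irgm2 share 162 exonic bases on the same strand and 243 of their 50-base words, so reads there could have been left out or given to either gene.

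Iigp1, the effector on chromosome 18, was the least abundant member in WT per length. It had 746 and 900 counts in WT and 1175 and 892 in anti-Act1 libraries, or 11.5 and 11.9 CPM against 19.0 and 16.3 CPM. The anti-Act1 libraries were both higher and farther apart than the WT libraries. The log2 fold change was 0.60 (SE 0.09, 95% interval 0.41 to 0.78, adjusted p = 1.56e-06, edgeR), between 0.48 and 0.70 when any library was left out. It was called under 12 of 13 alternatives, the exception being limma without a filter (adjusted p = 0.0524).

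Levels between genes were compared per length, in FPKM. In WT the order was Irgm1 (68.3 ± 0.992), Igtp (27.9 ± 0.339), Gbp2 (25.9 ± 0.205), Gbp9 (24.7 ± 0.945), Irgm2 (23.0 ± 0.620), Gbp3 (19.4 ± 0.465), Gbp7 (10.8 ± 1.03), Gbp5 (6.35 ± 0.0859), Gbp4 (5.21 ± 0.171) and Iigp1 (3.87 ± 0.0857 FPKM, mean ± SD, n = 2). The libraries of no 2 neighbours in this order overlapped, though Igtp to Irgm2 spanned a narrow range. In anti-Act1 libraries Gbp2 (44.0 ± 0.615 FPKM) stood next after Irgm1 (75.3 ± 0.208 FPKM), Gbp3 (29.1 ± 0.894 FPKM) stood above Irgm2 (23.4 ± 0.624 FPKM), and Irgm2 above Gbp9 (21.7 ± 0.190 FPKM). Iigp1 (5.75 ± 0.668 FPKM) and Gbp4 (5.13 ± 0.672 FPKM) came last with overlapping libraries.

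Ratios between members within a library do not depend on the library's scaling. Gbp2 over Gbp9 was 1.09 and 1.02 in WT and 2.06 and 1.99 in anti-Act1 libraries, on FPKM. Gbp3 over Gbp9 was below 1 in both WT libraries (0.793 and 0.777) and above 1 in both anti-Act1 libraries (1.38 and 1.30). Gbp2 over Irgm1 was 0.378 and 0.382 in WT and 0.588 and 0.579 in anti-Act1 libraries. These pairs set members that rose most against members that rose less or fell, and they describe the size of that difference. Gbp5 and Iigp1 rose about as much as Gbp3 on the log2 scale. With 2 libraries a group, an exact permutation test of such a ratio cannot go below p = 0.333, and none was run.

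The summed FPKM of the 6 Gbp members was 90.6 and 94.1 in WT and 123 and 120 in anti-Act1 libraries. Of the mean difference of 29.3 FPKM, Gbp2 contributed 18.0, Gbp3 9.78, Gbp5 2.97 and Gbp7 1.54, whereas the difference for Gbp9 was -2.95 FPKM. Gbp9 thus went from 26.5% and 26.9% of the Gbp sum in WT to 17.5% and 18.2% in anti-Act1 libraries, and Gbp2 from 28.8% and 27.4% to 36.0% and 36.3%. The 4 Irg members summed to 123 and 123 FPKM in WT and 136 and 136 FPKM in anti-Act1 libraries. Irgm1 made up between 55.1% and 55.9% of the Irg sum in every library. Iigp1 took 3.09% and 3.21% in WT and 4.59% and 3.87% in anti-Act1 libraries, and Irgm2 took 18.2% and 19.1% in WT and 16.9% and 17.5% in anti-Act1 libraries, in both cases without overlap.

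**Figure D3:**
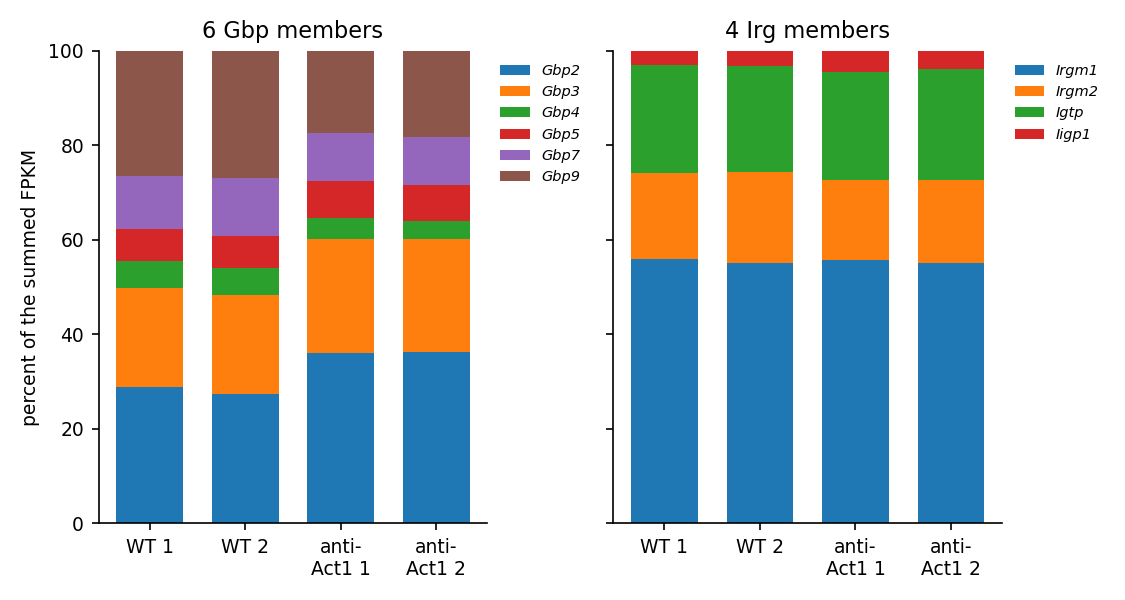
Share of each member in the summed FPKM of its family, in percent, in each of the 4 libraries. In the Gbp panel Gbp2 and Gbp3 widen and Gbp9 narrows from WT to anti-Act1, while in the Irg panel Irgm1 stays between 55.1% and 55.9% and Iigp1 widens.

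The members' position in the genome was not used in choosing them. Gbp5, Gbp7, Gbp3 and Gbp2 form a run on chromosome 3, interrupted only by Gbp2b among coding genes, and all 4 were higher in anti-Act1 libraries. Gbp2b was almost silent, with 0 and 12 counts in WT and 14 and 19 in anti-Act1 libraries, and was not called (adjusted p = 0.101, edgeR). On chromosome 5 the order is Gbp8, Gbp9, Gbp4, Gbp10 and Gbp6. There Gbp8 was lower beside Gbp9 (log2 fold change -0.29, adjusted p = 0.0215, edgeR) and Gbp6 was higher (0.52, adjusted p = 2.83e-09, edgeR). Gbp6 shares 70.7% of its 50-base words with other genes, chiefly Gm43302 and Gbp10, so its count is uncertain. Gbp8 shares 18.1% of its words with other genes, 228 of the words with Gbp9. Reads there could have been left out or given to either gene. The Irg members lie on chromosome 11, in separate clusters around Irgm1 and around Igtp and Irgm2, and on chromosome 18.

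Of 30 symbols listed for other Gbp, Irg and related GTPases, 17 were in the table and tested. The list holds further names of tested genes, such as Irgb10 for Gm12250, so an absent symbol is not always an absent gene. Of the 17 tested, 5 were higher, 2 lower and 10 not called, beside 10.9% higher and 9.76% lower over all genes. Their median log2 fold change was 0.19. Besides Gbp6, the higher genes were Ifi47 (Irgd, 0.22), Tgtp2 (0.30), Tgtp1 (0.81) and Gm12250 (Irgb10, 0.19, adjusted p = 0.0245, edgeR). Each of these 4 is an effector Irg gene of chromosome 11. Other related genes of that chromosome had negative values and were not called. They were 9930111J21Rik1 (-0.24, adjusted p = 0.0595, edgeR), Gm5431 (-0.10) and 9930111J21Rik2 (-0.01). Ifi47 gave 94.7 and 87.8 CPM in WT and 108 and 105 CPM in anti-Act1 libraries, without overlap. Tgtp1 and Tgtp2 share 81.2% and 86.6% of their words with other genes, chiefly with each other, and their separate values are uncertain. Besides Gbp8, the gene called lower was Gm4070 (-0.22), which shares 97.8% of its words with the giant GTPase Gvin1 and others. Gm12250 shared no 50-base word with another gene.

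**Figure D4:**
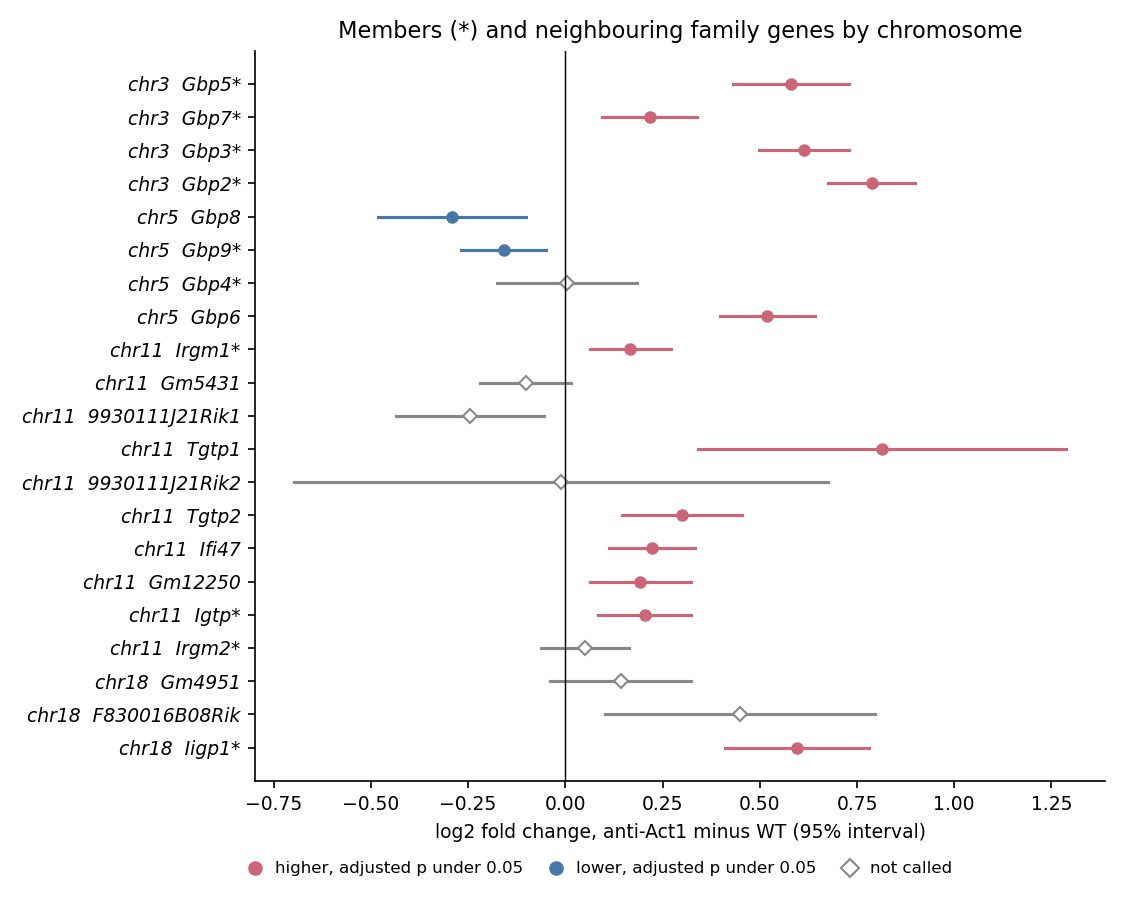
Log2 fold change (anti-Act1 minus WT) with its 95% interval for the members (asterisk) and tested genes of the same families near them, in chromosome order within chromosomes 3, 5, 11 and 18. Gbp2b and Gbp10, with under 20 counts in every library, are left out. Filled circles were called by edgeR and open diamonds were not. The chromosome 3 genes all lie to the right of 0, while Gbp8 and Gbp9 on chromosome 5 lie to the left. On chromosome 11, Gm5431, 9930111J21Rik1 and 9930111J21Rik2 also lie to the left and were not called.

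Of 15 tested genes of the interferon γ receptor and signalling list, 1 was higher, 3 lower and 11 not called, with a median log2 fold change of 0.04, beside 10.9% higher and 9.76% lower over all genes. The higher gene was Socs3, a feedback inhibitor of cytokine receptors (0.58, adjusted p = 0.000827, edgeR). The lower genes were Ifngr1, a chain of the interferon γ receptor (-0.15), Ptpn6, the phosphatase SHP-1 (-0.29), and Pias1, an inhibitor of cytokine signalling (-0.25). Irf1, a factor needed for full Gbp induction, gave 84.3 and 87.9 CPM in WT and 94.1 and 93.9 CPM in anti-Act1 libraries. Both anti-Act1 libraries lay above both WT libraries, as for 7 of the 15 tested genes, Irf1 included, and 28.4% of all genes. Irf1 was not called (log2 fold change 0.13, adjusted p = 0.0972, edgeR). The ligand gene Ifng had 0 and 1 counts in WT and 0 and 0 in anti-Act1 libraries.

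Of the 10 genes of the type I interferon receptor and ISGF3 list, 5 were higher and 0 lower by edgeR at an adjusted p under 0.05. Over all genes tested, 10.9% were higher and 9.76% lower. The median log2 fold change of the list was 0.16. Irf7, the factor that amplifies type I interferon, gave 630 and 604 CPM in WT and 845 and 851 CPM in anti-Act1 libraries (log2 fold change 0.46, adjusted p = 4.59e-10, edgeR). Isg15, a ubiquitin-like interferon target, rose by 0.57, its protease Usp18 by 0.53 and the receptor chain Ifnar2 by 0.22. Ifnb1, the interferon β gene, also passed the test (adjusted p = 0.0264, edgeR) on 4 and 0 counts in WT and 10 and 16 counts in anti-Act1 libraries. Its WT counts lie at the limit of detection, so no fold is given. The other receptor chain Ifnar1 (0.11), the receptor kinase gene Tyk2 (-0.07), Stat2 (0.04), Irf9 (0.03) and Irf3 (0.00) were not called. Of the listed receptor, kinase and ISGF3 genes, Ifnar2 alone was called. The list also holds an interferon gene and interferon targets, so its count does not stand for receptor and ISGF3 genes alone. It differs in make-up from the interferon γ list, and the difference between the 2 lists was not tested.

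**Figure D5:**
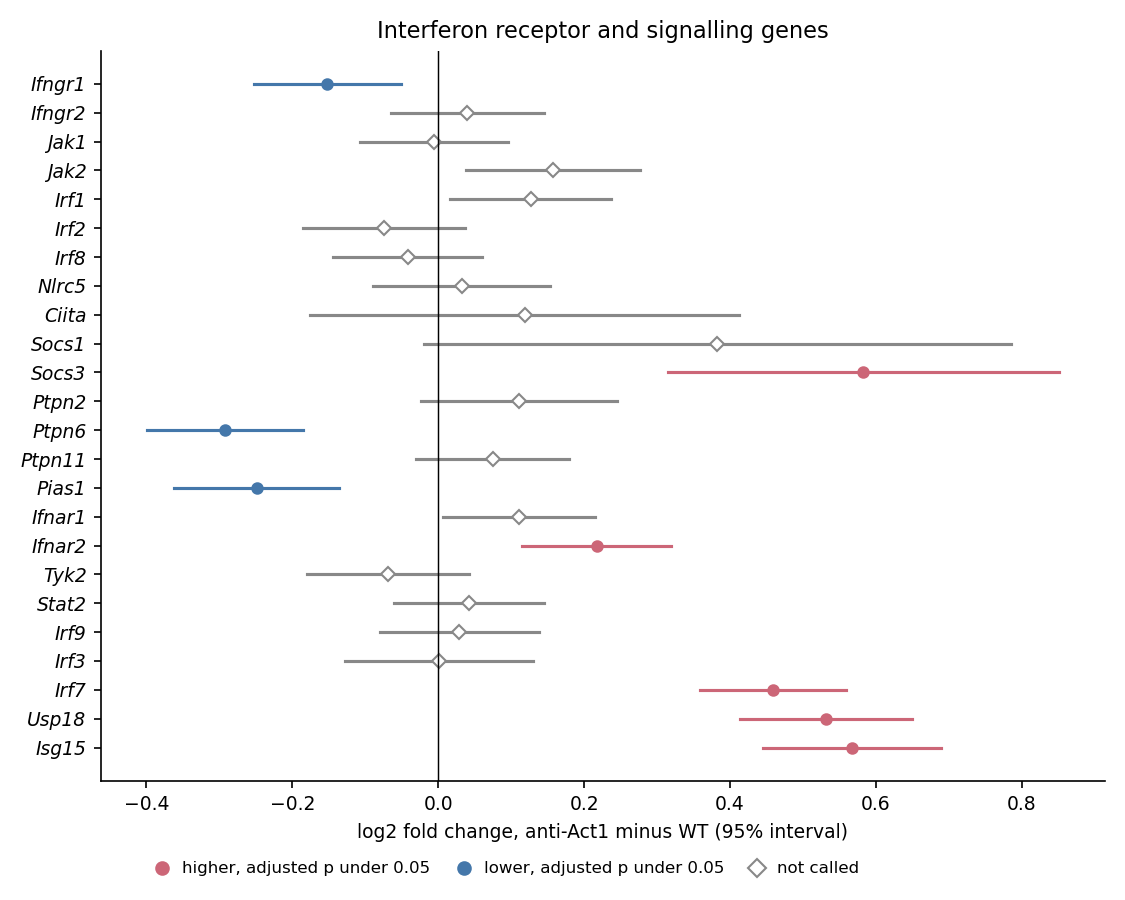
Log2 fold change (anti-Act1 minus WT) with its 95% interval for tested interferon γ and type I interferon signalling genes, Ifnb1 left out for its low counts. Filled circles were called by edgeR. Socs3, Irf7, Usp18 and Isg15 lie to the right of 0, Ifngr1, Ptpn6 and Pias1 to the left, and Irf1 (0.13) was not called.

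Genes that place Gbp and Irg proteins on membranes were tested as a list of 22, of which 5 were higher, 1 lower and 16 not called. Over all genes tested, 10.9% were higher and 9.76% lower. The median log2 fold change of the list was 0.04. The higher genes were Traf6, a ubiquitin ligase found at Gbp- and Irg-coated vacuoles (0.43, adjusted p = 3.36e-08, edgeR), the autophagy receptor Sqstm1 (0.24), Icmt, which methylates lipid-anchored proteins (0.19), Atg12 (0.15) and the vacuole-damage lectin Lgals3 (0.14). The lower gene was Pggt1b (-0.18, adjusted p = 0.0297, edgeR), a subunit of the enzyme that attaches geranylgeranyl anchors. Of the autophagy conjugation genes that direct these GTPases, Atg12 was called as given above, while Atg3 (0.03), Atg5 (0.09), Atg7 (-0.03) and Atg16l1 (0.04) were not.

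Downstream of the Gbp proteins, 12 caspase-11 and inflammasome genes were tested, with 3 higher, 1 lower and 8 not called. Over all genes tested, 10.9% were higher and 9.76% lower. The median log2 fold change of the list was -0.05. Casp4, which encodes caspase-11, was not called (-0.04, adjusted p = 0.758, edgeR), nor was the pore protein gene Gsdmd (-0.02, adjusted p = 0.851, edgeR). Nlrp3 (0.31), Il1b (0.29) and Mefv (0.16) were higher. Nlrp1b, an inflammasome sensor, was lower, with 1485 and 1858 counts in WT and 978 and 768 in anti-Act1 libraries (-0.67, adjusted p = 1.15e-08, edgeR).

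Tested genes outside the families that hold the ISRE core before a RefSeq start numbered 313. Of these 14.7% were called higher and 11.5% lower, with a median log2 fold change of 0.02, beside 10.9% and 9.65% of the 9624 tested genes with any start in the table. Outside the families, the 5 genes whose profile over the 4 libraries was nearest to the members' mean profile (root mean square distance in log2 CPM, 0.00704 to 0.0109) were B2m, Mmp12, Prkar2b, Dnajc1 and Tpm1, with log2 fold changes of 0.29 to 0.32. As these genes were picked by that distance, their changes follow from the choice and show no shared control. B2m encodes the light chain of MHC class I, and Mmp12 is the macrophage elastase.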

How the data were processed

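Libraries were made from total RNA with a NEBNext Ultra kit. The authors aligned 150 bp read pairs with TopHat and deposited the counts of reads per gene without normalization, and they also deposited FPKM values, which are these counts per length and per library total. The submitters' processing notes list Bowtie 0.12.2, HTSeq 0.6.1, mm8 and mm10 without their roles. The kit does not mark strand, so reads of genes that overlap on opposite strands cannot be told apart.

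Counts of the 2 WT and 2 anti-Act1 libraries were fitted with edgeR 4.0.16 (R 4.3.3; TMM, filterByExpr, condition only, two-sided quasi-likelihood F test) and adjusted by Benjamini-Hochberg over 12494 genes, with a threshold of 0.05. The 10 members and all lists were chosen with earlier results of these data known, so no list is independent evidence. Not every gene of the signalling list is reported here. Named were the members, called genes of each list, some genes not called and the 5 genes of nearest profile (mean of at least 1 CPM, 0.01 added). Promoters were taken from RefSeq (GRCm38.p6), and shared 50-base words and exon overlaps from GENCODE transcripts of GRCm38. Alternatives were DESeq2 1.42.0, its size factors, library totals, other filters (none, or 10 counts in every library), a replicate block, limma 3.58.1 on log2(FPKM + 1) or log2(FPKM + 0.1) with FPKM of at least 1 in 2 libraries, and each library left out. The test was tried on simulated counts first.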

Additional observations from a re-analysis of the deposited data

How the results depend on the processing

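Gbp2, Gbp3 and Gbp5 kept their call under all 13 alternatives, and Gbp4 and Irgm2 had none under any. Limma on log2(FPKM + 1) without a filter gave 1092 genes called against 2586, 3 members higher against 7 and 0 lower against 1. DESeq2 gave 1986 genes called and the same 7 and 1. Leaving out a library gave 1671 to 2543 genes called, 5 to 6 members higher and 0 to 1 lower. Without anti-Act1 replicate 1 it was 1712 genes and without anti-Act1 replicate 2 it was 1671. The members' median of 0.21 was 0.18 under limma on log2(FPKM + 1), with or without the filter, and 0.20 to 0.25 with a library left out. Gbp4 turned to -0.021 with library totals, -0.022 under limma with 1 added, filtered or not, -0.027 with 0.1 added, -0.00098 with the replicate block, and -0.13 to 0.12 with a library left out. The cause was not tested. Libraries with the same replicate number shared no visible pattern (correlation of deviations -0.03 over 12494 genes). With 2 libraries a group, this cannot tell whether they were prepared in pairs. The replicate block gave 2406 genes called, 7 members higher and 0 lower, since Gbp9 lost its call (adjusted p = 0.0592, edgeR). Members had at least 746 counts each, and their SE ran from 0.05 for Irgm1 to 0.09 for Iigp1. Ifng, Ifnb1 and Gbp2b were too low for a fold.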
